A study of Homo sapiens with 16 samples.

Results

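The 4 arrays that compared U937 cells given UNBS1450 for 3 h with their own 3 h control cells are described here, out of 16 arrays in all. They were chosen by the time point in the sample labels, replicates 1 to 4, with no measured value used. U937 is an established human line from a histiocytic lymphoma, a tumour of cells of the monocyte and macrophage lineage. The tested cells received 20 nM UNBS1450 and the control cells received no agent. In replicates 1 and 2 the treated RNA carried the dye Cy5 and in replicates 3 and 4 it carried Cy3, so each pair of replicates has a single dye orientation. The 4 arrays of 0 h serve as background: their labels name the agent, but the methods give no treatment at that time, so both dyes held untreated cells. Some label fields spell the line U397 where others have U937. The labels call the 4 arrays biological replicates, but name neither the culture nor the slide of an array.

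UNBS1450 is a cardenolide, a plant-derived steroid of the cardiac glycosides. These compounds bind the Na+/K+-ATPase, the sodium pump that carries sodium out of the cell and potassium in, and block it. Ion gradients, cell volume, calcium and protein synthesis depend on that pump. The study asked whether mRNA levels change before the loss of the survival protein Mcl-1 and the onset of apoptosis. The 3 h arrays are the earliest sampling under the agent.

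Each value is a log2 ratio of a spot, turned to run treated over control by the dyes in the labels and by limma's convention of Cy5 over Cy3, a direction that was not checked against scanner signals, so 1 means a doubling and 0 no difference. A fold change of 1.3 is 0.379 on that scale. Since the ratio keeps no signal level, neither abundance nor the identity of the cells could be checked with marker genes. In a bulk sample, fewer cells of a type and less RNA per cell cannot be told apart. Of the spots on the array, 28970 had a value on every array and the symbol of a single gene, which gave 17329 genes. Medians of the arrays as deposited lay between −0.0052 and 0.0033 at 3 h. Arrays differed by dye orientation, which cannot be told apart from replicate pair. Across spots, turned ratios of opposite dye orientation correlated between −0.228 and 0.035 at 3 h and between −0.266 and −0.122 at 0 h, and those of one orientation at 0.049 and 0.513 at 3 h and at 0.181 and 0.605 at 0 h.

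No gene was called changed after 3 h of UNBS1450. A call needed both 1.3-fold or more and adjusted p under 0.05 in limma, and this was met by 0 of 17329 genes (0%) at 3 h and 0 (0%) at 0 h. Without adjustment of p, 53 genes (0.306%) passed at 3 h, of which 7 (0.0404%) were higher and 46 (0.265%) lower in treated cells. At 0 h, where no agent was present, 146 genes (0.843%) passed, 5 higher (0.0289%) and 141 lower (0.814%) in the channel labelled as treated. With any fold change, an unadjusted p under 0.05 was met by 835 genes (4.82%) at 3 h and by 1344 genes (7.76%) at 0 h. The share passing at 3 h was thus no larger than in cells that had not met the agent. Robust regression in limma, which gives outlying arrays less weight, called 3 genes at 3 h (0.0173%) and 2 at 0 h (0.0115%).

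**Figure D1:**
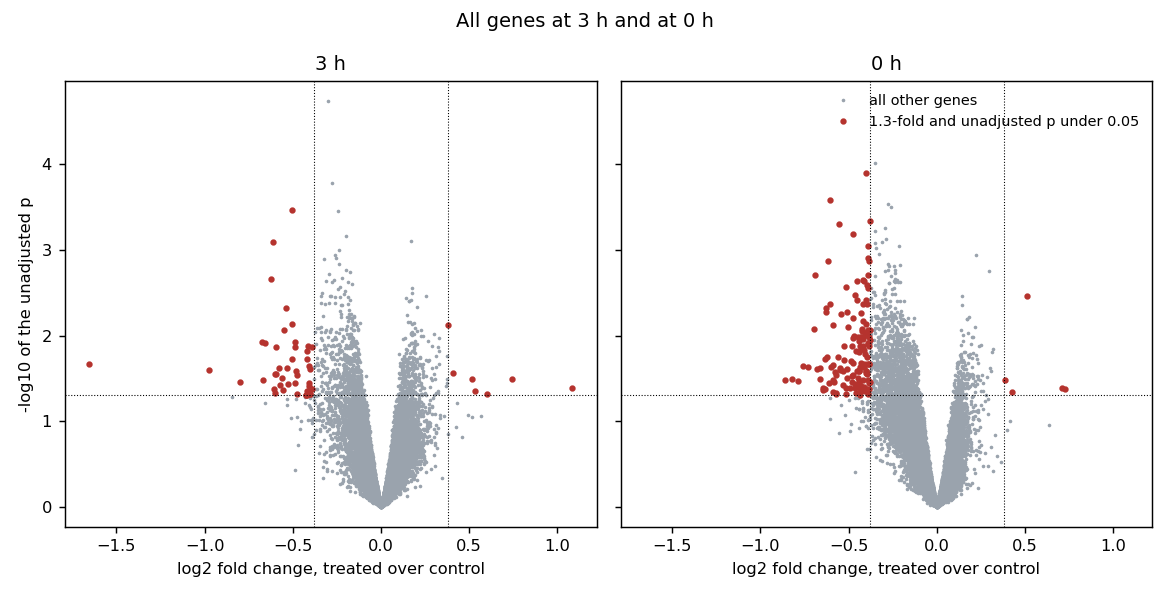
Each point is 1 of 17329 genes, with its mean log2 fold change over the arrays (x axis, treated over control) and the −log10 of its unadjusted p in limma (y axis), at 3 h on the left and 0 h on the right; dotted lines mark 1.3-fold and the threshold of 0.05. The 53 genes past both lines at 3 h and the 146 at 0 h are red, and most lie on the left, lower side in both panels.

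For most genes a change of 1.3-fold lay outside the 95% confidence interval of the ratio. Across genes the absolute log2 fold change had a median of 0.053 at 3 h and 0.060 at 0 h. The median standard error at 3 h was 0.075, and the 95% confidence interval reached a median of 0.16 to each side. For 14796 genes, 85.4%, that interval lay wholly within 1.3-fold in either direction. These intervals are not adjusted for the number of genes, and 4 arrays limit their precision. Signal levels were not used, so genes with dim spots count among the 14796. A narrow interval for such a gene does not show that a 1.3-fold change would have been seen.

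The genes on which the study turns moved little in the mean. MCL1 encodes the short-lived anti-apoptotic protein Mcl-1. Its log2 ratios at 3 h were −0.20, 0.22, 0.010 and 0.045 in replicates 1 to 4, against −0.18, −0.19, −0.054 and −0.045 at 0 h. The 3 h arrays lay on both sides of 0, and their mean of 0.020 had a 95% confidence interval of −0.11 to 0.15 (standard error 0.060, n = 4 arrays), or 1.01-fold with bounds of 0.93 and 1.11. The mean over all 3 spots of MCL1 was −0.040, so its sign depends on the spot. BCL2, which encodes a longer-lived relative of Mcl-1, stood at 0.41, −0.17, 0.39 and 0.13 at 3 h, against −0.10, −0.079, 0.094 and 0.084 at 0 h. Its mean of 0.19 (0.029 to 0.35) came from 1 of 11 spots, and the mean over all 11 was −0.0015. For BCL2L1, which encodes Bcl-xL, the 3 h arrays read −0.25, −0.013, 0.32 and 0.31 and the 0 h arrays −0.40, −0.79, 0.22 and −0.57, and the 3 h mean was 0.092 (−0.19 to 0.37). In that gene both replicates treated in Cy5 were below 0 and both treated in Cy3 above it at 3 h.

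PMAIP1 encodes NOXA, a BH3-only protein that binds Mcl-1. All 4 arrays of 3 h were below 0, at −0.21, −0.15, −0.42 and −0.20, whereas the 0 h arrays read −0.0076, 0.41, −0.43 and −0.16 and overlapped with them. The mean was −0.24 with an interval of −0.50 to 0.017. Its 10 spots had 3 h means of −0.24 to −0.10, all below 0, and the chosen spot was the lowest. Averaged over the spots the 3 h mean was −0.145, and replicate 4 stood at 0.042. ATP1B1 and ATP1B3 encode beta subunits of the pump, which help carry it to the membrane. ATP1B1 read 0.057, −0.080, 0.27 and 0.12 at 3 h, against −0.039, 0.014, 0.11 and 0.073 at 0 h, with a 3 h mean of 0.090 (−0.12 to 0.30). ATP1B3 read 0.28, 0.050, −0.29 and −0.15 at 3 h, against 0.27, 0.43, −0.081 and −0.24 at 0 h, with a 3 h mean of −0.029 (−0.29 to 0.23). At both times ATP1B3 was above 0 in the Cy5 replicates and below 0 in the Cy3 replicates. For none of these 6 genes did a 3 h interval reach a doubling or a halving. Only the interval of PMAIP1 took in a change of 1.3-fold, a fall.

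The genes that passed without adjustment were mostly lower. Of the 53, 25 had all 4 arrays of 3 h on one side of 0, 24 of them below and 1 above. Over all genes, all 4 arrays were above 0 in 6.32% and below 0 in 8.28% at 3 h, and in 6.52% and 8.36% at 0 h. The lowest adjusted p among the 53 was 0.9998. For 32 of them the array carried more than 1 spot, and in 19 of these 32 the other spots had a mean on the same side of 0, but in 0 of 32 did that mean reach 1.3-fold.

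Of the 8 such genes with the lowest moderated t, LRRCC1 had the smallest SD between arrays. It encodes a centrosomal protein and stood at −0.47, −0.84, −0.85 and −0.28 at 3 h, against −0.24, 0.17, −0.17 and 0.059 at 0 h. The groups did not overlap, and the 3 h mean was −0.61 ± 0.28 (SD, n = 4). The other spot of the gene had a mean of −0.078. MPHOSPH10P1 is a pseudogene of MPHOSPH10, a nucleolar factor of ribosomal RNA processing, and its spot may also bind RNA of the parent gene. It read −0.095, −0.60, −0.38 and −0.94 at 3 h, against −0.12, 0.12, −0.080 and 0.091 at 0 h, which overlapped through replicate 1, with a 3 h mean of −0.50 ± 0.36. VPS13A, which encodes a lipid transfer protein at membrane contacts, read −0.10, −0.86, −0.83 and −0.37 at 3 h and −0.37, 0.27, −0.17 and 0.24 at 0 h. Its 4 spots had 3 h means of −0.54 to −0.17. NOL8, for a nucleolar protein, read −0.099, −0.92, −1.07 and −0.10 at 3 h and −0.35, 0.17, −0.25 and 0.21 at 0 h, and its 3 spots had means of −0.55 to −0.20. In both genes replicates 2 and 3 lay far below the other arrays.

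That shape recurred. Of the 53 genes, 13 had replicates 2 and 3 both at −0.5 or lower: PNISR, PIK3R3, KIAA0319L, KIDINS220, GAPVD1, VPS13A, SSB, IQGAP2, TAF2, ZC3H13, LRRCC1, NOL8 and ANKRD36B. This group was picked out after the values were seen and gets no test. Its medians on replicates 1 to 4 were −0.099, −0.86, −0.83 and −0.10 at 3 h, against −0.47, 0.20, −0.25 and 0.21 at 0 h. At 0 h, in cells without the agent, all 13 were below 0 in replicates 1 and 3, while 11 were above 0 in replicate 2 and 12 in replicate 4. On those 4 arrays the medians of all genes lay between −0.018 and 0.0054. The median of the means of the 13 was −0.50 at 3 h and −0.054 at 0 h. Over all 17329 genes, 53 (0.306%) had both replicates that low at 3 h. Their medians on replicates 1 to 4 were 0.068, −0.70, −0.68 and −0.057 at 3 h and −0.35, 0.23, −0.26 and 0.20 at 0 h. All 13 of the group were below 0 at 6 h and at 9 h, with medians of −0.12 and −0.47, beside −0.0061 and 0.0024 for all genes. Of the 53 genes that low over all genes, which include the 13, 52 were below 0 at 9 h, with a median of −0.42. Being low at 9 h was thus not particular to the 13.

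**Figure D2:**
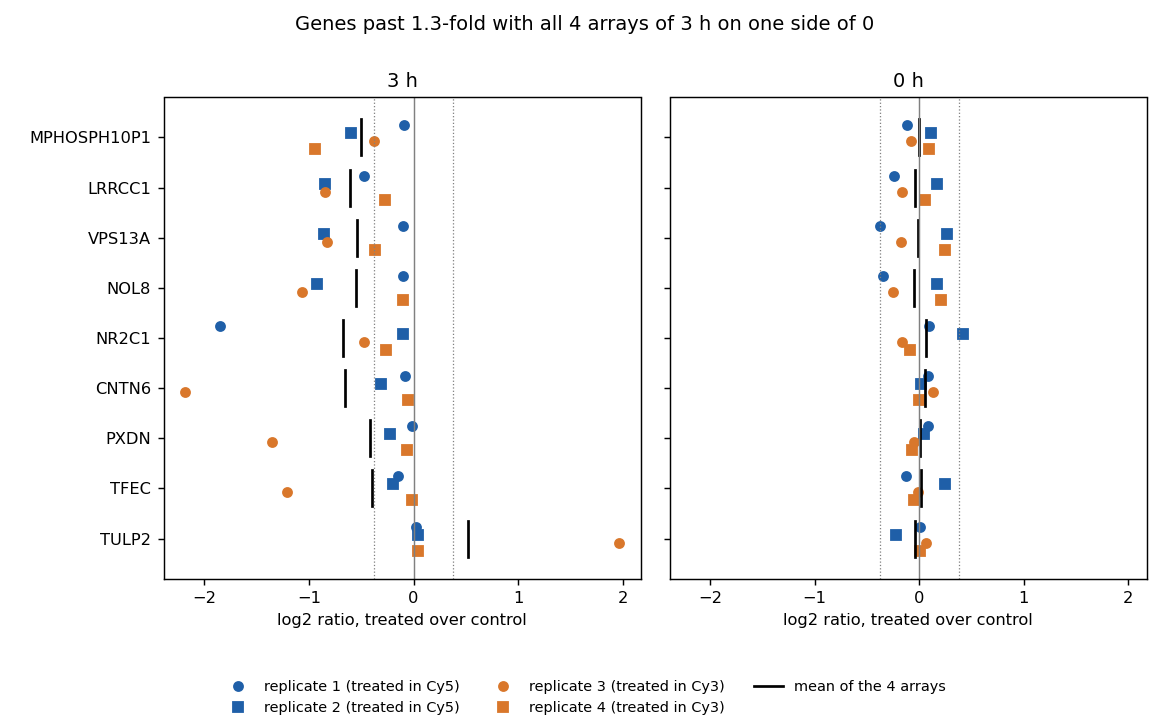
Log2 ratios (x axis, treated over control) on each array of 3 h, left, and of 0 h, right, for the 8 genes with the lowest moderated t and the 1 higher gene among those past 1.3-fold with unadjusted p under 0.05 and all 4 arrays on one side of 0; marker shape and colour give the replicate and its dye, the bar is the mean, and dotted lines mark 1.3-fold. LRRCC1, VPS13A and NOL8 are low on replicates 2 and 3, and CNTN6, PXDN, TFEC and TULP2 are set apart by replicate 3 alone.

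The remaining genes of that rule owed most of their mean to 1 array. NR2C1, an orphan nuclear receptor, read −1.85, −0.11, −0.47 and −0.26 at 3 h, against 0.097, 0.42, −0.16 and −0.089 at 0 h, with replicate 1 far below the rest. CNTN6, a neural adhesion protein, read −0.083, −0.31, −2.18 and −0.051 at 3 h, against 0.088, 0.015, 0.13 and −0.0016 at 0 h. PXDN, a peroxidase that cross-links collagen, read −0.011, −0.23, −1.36 and −0.067 at 3 h, against 0.088, 0.047, −0.048 and −0.071 at 0 h. Both were set by replicate 3. TFEC, a transcription factor of the MiT family found in myeloid cells, read −0.15, −0.20, −1.21 and −0.011 at 3 h, against −0.13, 0.25, −0.010 and −0.048 at 0 h, again with replicate 3 alone far down. TULP2, a tubby-like protein of the testis, was the only gene higher on all 4 arrays that passed, at 0.019, 0.047, 1.97 and 0.042, against 0.0042, −0.22, 0.061 and 0.010 at 0 h, and it too rested on replicate 3. The mean of its other 3 arrays was 0.036.

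Such values were common on both sets of arrays. Of the 86 genes (0.496%) whose mean passed 1.3-fold at 3 h, 13 were higher and 73 lower, and in 52, or 60.5%, the other 3 arrays averaged under 0.15 in the direction of the mean. Replicates 1 to 4 supplied the far value in 5, 12, 16 and 19 of these genes. At 0 h the mean passed 1.3-fold in 185 genes (1.07%), of which 99, or 53.5%, were of this kind, 74 of them through replicate 4. Of the 53 genes that passed without adjustment at 3 h, 30 were of this kind, and so were 69 of the 146 at 0 h. The farthest single values at 3 h belonged to RAX2, a homeobox factor of the retina, with 0.036, −5.98, 0.022 and −0.70, DZIP1L, a protein of primary cilia, with 0.13, −0.0051, 4.33 and −0.11, DCLK2, a doublecortin-like kinase, with −0.13, −0.31, 0.050 and −3.51, and USP54, of the ubiquitin peptidase family, with −0.0025, −3.50, 0.055 and 0.072. Without that array their means were −0.21, 0.0032, −0.13 and 0.041. Their 0 h arrays lay between −0.15 and 0.17.

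**Figure D3:**
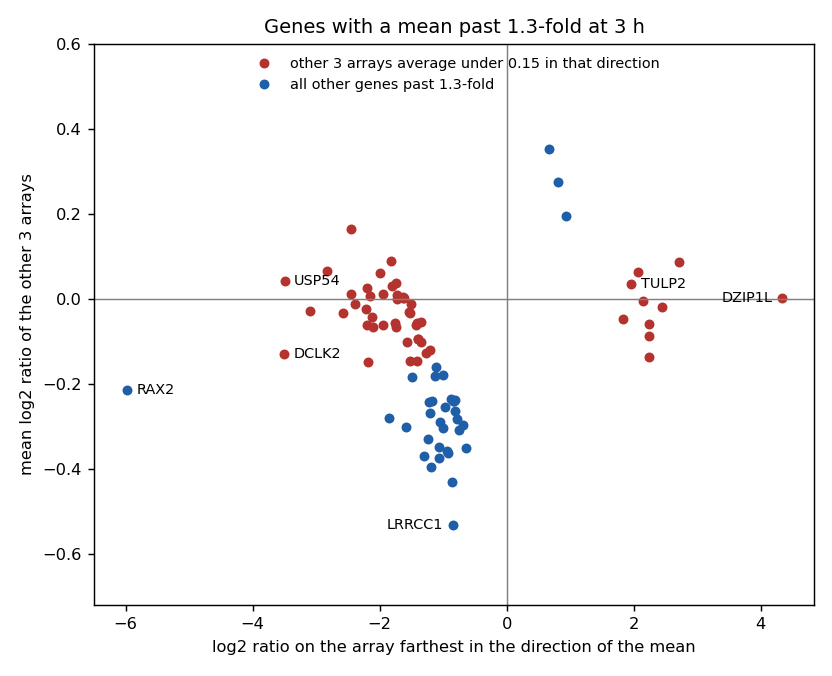
The 86 genes with a mean past 1.3-fold at 3 h, each with its ratio on the array farthest in the direction of the mean (x axis, log2) and the mean of its other 3 arrays (y axis, log2). The 52 red genes have other arrays averaging under 0.15 in that direction, and RAX2, DZIP1L, DCLK2 and USP54 lie farthest from 0 on the x axis.

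The smallest p of all belonged to a shift under 1.3-fold. RECQL, a DNA helicase of the RecQ family, had the lowest adjusted p of all genes at 3 h, 0.528 in limma. Its ratios were −0.40, −0.32, −0.27 and −0.21 at 3 h, against −0.000074, 0.13, −0.063 and 0.043 at 0 h, with no overlap, and its mean of −0.30 (−0.41 to −0.20) stayed under 1.3-fold. The other spot of RECQL had a mean of −0.049. The next genes were chosen after their values were seen. STAG2, a subunit of the cohesin ring that holds sister chromatids, read −0.36, −0.11, −0.20 and −0.37 at 3 h, against 0.20, 0.15, −0.025 and 0.036 at 0 h, and its other spot was lower still at −0.49. SAMSN1, an adaptor protein of blood cells, read −0.36, −0.22, −0.16 and −0.22 at 3 h, against 0.12, −0.036, 0.056 and 0.081 at 0 h. HOOK3, which links dynein to its cargo, read −0.47, −0.25, −0.26 and −0.13 at 3 h, against −0.12, 0.056, −0.048 and 0.15 at 0 h, but the mean of its 5 spots was −0.10. On the higher side, NACC1, a nuclear BTB-domain regulator of transcription, read 0.23, 0.21, 0.13 and 0.098 at 3 h, against 0.024, −0.024, −0.017 and −0.080 at 0 h, with a mean of 0.17 (0.083 to 0.26). By the mean none of these genes passed adjustment. By robust regression RECQL and HOOK3 had an adjusted p under 0.05 in limma but stayed under 1.3-fold, as did CYP2W1, PSMD1, SLC29A4 and UEVLD among the genes named here.

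Robust regression called MPHOSPH10P1 and CCNE2 lower and EIF2S3 higher at 3 h. CCNE2 encodes cyclin E2, which drives entry into S phase. It read −0.38, 0.20, −0.62 and −0.46 at 3 h, against 0.14, 0.043, −0.27 and 0.17 at 0 h, so that 3 arrays were low and replicate 2 was above 0. Its log2 fold change was −0.32 by the mean and −0.42 by robust regression (adjusted p = 0.0138 in limma). EIF2S3 encodes the gamma subunit of eIF2, which brings the initiator tRNA to the ribosome. It read 0.50, −0.34, 0.60 and 0.32 at 3 h, against −0.031, 0.18, 0.14 and 0.091 at 0 h, with 3 arrays high and replicate 2 low. Its log2 fold change was 0.27 by the mean and 0.41 by robust regression (adjusted p = 0.0409 in limma). For MPHOSPH10P1 robust regression gave −0.49 (adjusted p = 0.0479 in limma). By the mean and in the other alternatives run the adjusted p in limma was 0.1616 or more for MPHOSPH10P1, 0.1495 or more for CCNE2 and 0.3512 or more for EIF2S3, and reached 1 for each.

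Setting 3 h against 0 h directly takes out only those channel differences that both sets of arrays share. It also adds the spread of the 0 h arrays. No gene (0%) was called in that contrast, where the lowest adjusted p in limma was 0.655. Without adjustment 462 genes (2.67%) passed, 441 higher (2.54%) and 21 lower (0.121%). Robust regression called 23 (0.133%), 20 higher and 3 lower, among them SLC29A4 and FXYD5, higher, and CCNE2, lower, of the genes named here. The 441 owed more to 0 h than to 3 h. Their median was 0.17 at 3 h and −0.30 at 0 h, and only 31 of them stood farther from 0 at 3 h than at 0 h. By array, their medians were −0.088, 0.17, 0.31 and 0.27 at 3 h and −0.39, −0.68, −0.027 and −0.037 at 0 h, so replicates 1 and 2 at 0 h were the lowest. Without replicate 2, 101 genes passed, 56 higher and 45 lower. The 21 lower genes had medians of −0.29 at 3 h and 0.13 at 0 h. Over all genes, the arrays of 3 h all lay above those of 0 h in 609 genes (3.51%) and all below in 524 (3.02%).

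Genes with the smallest p in this contrast and no overlap are given as examples. Among the higher ones, RNF123, a ubiquitin ligase subunit, read 0.092, 0.067, 0.33 and 0.043 at 3 h, against −0.37, −0.36, −0.19 and −0.13 at 0 h, a difference of 0.39 (standard error 0.080). SLC29A4, a transporter of monoamines and nucleosides, read 0.30, −0.056, 0.29 and 0.28 at 3 h, against −0.18, −0.37, −0.10 and −0.18 at 0 h. ATG2A, a lipid transfer protein of autophagosome growth, read 0.020, 0.093, 0.019 and 0.22 at 3 h, against −0.23, −0.48, −0.22 and −0.47 at 0 h. The mean lay farther from 0 at 0 h than at 3 h in RNF123 (0.13 at 3 h and −0.26 at 0 h) and in ATG2A (0.087 and −0.35), and in SLC29A4 both were about equal in size (0.21 and −0.21). NUDCD3 and CYP2W1 differed by 0.42 and 0.26. Among the lower ones, ZDHHC13, an enzyme that adds palmitate to proteins, read −0.11, −0.15, −0.26 and −0.21 at 3 h, against 0.24, 0.28, 0.067 and 0.14 at 0 h, a difference of −0.37 (standard error 0.081). CKAP2L, a protein of the mitotic spindle, read −0.18, −0.12, −0.29 and −0.15 at 3 h, against 0.20, 0.17, 0.27 and −0.058 at 0 h. BCAT1, an aminotransferase of branched-chain amino acids, and UEVLD differed by −0.33 and −0.26. For RECQL the difference was −0.33 (standard error 0.070), with the 0 h arrays close to 0.

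**Figure D4:**
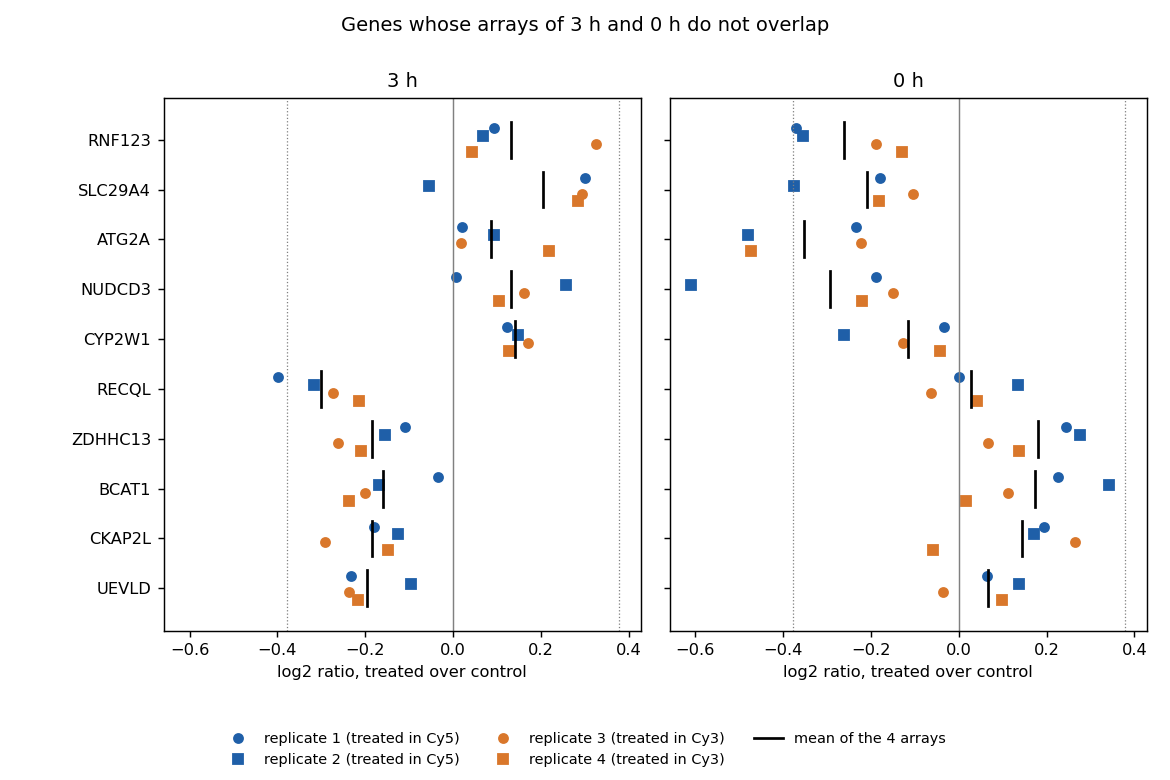
Log2 ratios (x axis, treated over control) on each array of 3 h, left, and 0 h, right, for the 5 higher and the 5 lower genes with the smallest p in 3 h minus 0 h among genes whose 2 sets of arrays do not overlap; markers, bars and dotted lines are as for the genes with all 4 arrays on one side. The 5 higher genes have 0 h means between −0.35 and −0.12, and RECQL has 0 h values around 0.

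A subset of 193 genes had 10 or more spots on each array, up to 16, which shows how far a gene's value depended on the spot. Among spots of a gene the 3 h means had a median SD of 0.031, and among its arrays, averaged over spots, the median SD was 0.11. The spread between arrays was thus the larger part. With all spots of a gene averaged, 17 of the 193 had an unadjusted p under 0.05 in limma at 3 h, 2 higher and 15 lower, beside 4.15% of all genes (1.28% higher and 2.87% lower), and no mean reached 1.3-fold. All spots were above 0 in 25 genes and below 0 in 74 at 3 h, against 48 above and 41 below at 0 h. Spots of a gene on 1 array read the same RNA, so their agreement is not replication. BAZ1A had all 10 spots below 0 at 3 h, although its arrays, averaged over spots, stood at −0.0049, 0.27, −0.40 and −0.59.

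Several of these encode regulators of signalling, and they were chosen after their values were seen. RELA and NFKB1 encode the p65 and p50 partners of NF-kB. RELA, averaged over 10 spots, stood at 0.048, 0.22, 0.21 and 0.20 at 3 h, against −0.18, −0.46, −0.13 and −0.16 at 0 h, with all 10 spots above 0 at 3 h and below 0 at 0 h. Its 3 h mean was 0.17 (standard error 0.069). NFKB1 stood at −0.20, −0.15, −0.11 and −0.13 at 3 h, against 0.075, 0.046, 0.061 and 0.11 at 0 h, with all 10 spots below 0 at 3 h and a 3 h mean of −0.15 (standard error 0.060). In both genes the 3 h and 0 h arrays did not overlap, on opposite sides. Such separation was seen in 6 of the 193 genes above and 15 below, beside 2.83% and 2.82% of all genes. HRAS, a small GTPase of growth factor signalling, stood at 0.097, 0.22, 0.16 and 0.10 at 3 h, against −0.13, −0.41, −0.10 and −0.12 at 0 h. JAK2, a kinase of cytokine receptors, stood at −0.14, −0.11, −0.025 and −0.25 at 3 h, against 0.011, 0.12, 0.055 and 0.051 at 0 h. MYC, a transcription factor of cell growth, stood at −0.20, −0.11, −0.069 and −0.26 at 3 h, against 0.060, 0.080, 0.15 and 0.086 at 0 h, with a standard error of 0.27 around its 3 h mean of −0.16. All 16 arrays enter that standard error.

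HSP90AA1, the inducible form of the chaperone HSP90, had the lowest mean among genes with 10 or more spots. Its 13 spots were all below 0, at −0.47 to −0.12, but so they were at 0 h. Its arrays, averaged over spots, stood at −0.17, −0.56, −0.65 and −0.054 at 3 h, against −0.49, 0.032, −0.27 and 0.16 at 0 h, with replicates 2 and 3 low at 3 h as in the group above. ZNF195, a zinc finger protein, stood at −0.12, −0.19, −0.60 and −0.36 at 3 h, against −0.25, 0.23, −0.41 and 0.13 at 0 h. SMARCAD1, a chromatin remodeller, stood at −0.32, 0.0049, −0.16 and −0.31 at 3 h, against 0.032, 0.0026, 0.0039 and −0.068 at 0 h. CASP8 and ERBB2 showed the opposite case, in which the spot with the highest F-statistic stood apart. CASP8, the initiator caspase of death receptors, had −0.23 on that spot and 0.033 over its 12 spots. ERBB2, a receptor tyrosine kinase, had −0.49 and −0.027 over its 11 spots, where replicate 4 read −1.52 on the chosen spot.

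Gene groups of the pump, of cell death and of stress stayed close to 0. No member of the 36 lists was called at 3 h by the mean of the arrays, whereas robust regression called CCNE2 and EIF2S3, and a list is described by its members' counts and median with no test. Over all genes the median log2 fold change was −0.0019 at 3 h and −0.0053 at 0 h, 49.1% lay above 0 at 3 h, and an unadjusted p under 0.05 was met higher by 1.7% and lower by 3.12%. Of the 33 sodium pump subunits and cation transporters listed 24 were measured, 14 of them above 0, with a median of 0.0063 and no p under 0.05. The smallest p belonged to ATP2B1, a calcium pump of the plasma membrane, at −0.31, −0.16, −0.19 and −0.11 at 3 h, against −0.25, 0.17, 0.11 and 0.0095 at 0 h. FXYD5, a small regulator of the pump, read −0.021, 0.31, 0.19 and 0.19 at 3 h, against −0.27, −0.66, −0.19 and −0.10 at 0 h, with no overlap. Potassium channels had a median of −0.026 over 46 of 61 genes. Their 1 gene with p under 0.05, KCNJ2, an inward rectifier, had a mean of −0.40 through replicate 4 at −1.64, and the other 3 arrays averaged 0.0053.

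The BCL2 family had 15 of 22 members above 0 and a median of 0.043 at 3 h and −0.024 at 0 h. BAX, a pore-forming member, read 0.11, 0.071, 0.22 and 0.18 at 3 h, against −0.18, −0.42, 0.052 and 0.015 at 0 h, but its mean over 12 spots was 0.062. Of 16 factors that add or remove ubiquitin on Mcl-1 or otherwise set its turnover, 10 were below 0, the median was −0.063, and none had p under 0.05. All 4 arrays were below 0 for GSK3B, a kinase that marks Mcl-1 for degradation (−0.094, −0.21 to 0.026), and for UBE2K, a ubiquitin-conjugating enzyme (−0.11, −0.25 to 0.041). CUL5, a cullin scaffold of ubiquitin ligases, had −0.14 (−0.31 to 0.025). Caspases, IAP proteins and apoptosome genes had 7 of 19 above 0 and a median of −0.034 at 3 h and 0.045 at 0 h. Beside 3.12% of all genes, 3 of the 19 were lower with p under 0.05, and none was higher. These were CASP8, BIRC2, which encodes the inhibitor of apoptosis cIAP1 (−0.41, −0.20, 0.012 and −0.13 at 3 h, against 0.040, −0.14, 0.087 and 0.19 at 0 h), and the effector caspase CASP6 (−0.0065, −0.34, −0.17 and 0.0063 at 3 h, against 0.027, 0.13, −0.012 and 0.062 at 0 h).

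Immediate early genes, which answer calcium and growth factor signals within the hour, had 17 of 31 members above 0 and a median of 0.020. JUNB had the only p under 0.05, with 0.31, 0.062, 0.019 and 0.14 at 3 h, against 0.19, 0.15, −0.014 and 0.041 at 0 h, and the groups overlapped. FOSB read 0.060, 0.24, 0.20 and 0.15 at 3 h, against 0.13, 0.15, −0.0058 and −0.11 at 0 h, and KLF2 0.18, 0.027, 0.038 and 0.12 at 3 h, against −0.042, −0.076, −0.022 and −0.10 at 0 h, where all 4 arrays of 3 h lay above those of 0 h. The MAP kinase phosphatases and Sprouty proteins had a median of −0.0084 and the MYC network one of 0.032, each with no p under 0.05 among 15 genes. DUSP8, a phosphatase of stress kinases, read 0.072, 0.22, 0.16 and 0.00016 at 3 h, against −0.17, −0.094, −0.12 and −0.18 at 0 h. NF-kB genes had 14 of 22 above 0, a median of 0.048, 1 higher gene with p under 0.05, TNFAIP2 (0.11, 0.0018 to 0.22), and 1 lower, NFKB1. NFKB2 read 0.090, 0.17, 0.31 and 0.17 at 3 h, against −0.25, −0.59, 0.023 and 0.070 at 0 h. Myeloid cytokines had a median of −0.022 over 33 genes. Among them CXCL16 had a mean of 0.18 at 3 h and 0.16 at 0 h, and LIF −0.12 and −0.13. Toll-like receptors had a median of −0.013 over 19 genes, with TLR2 at −0.11 on its chosen spot and −0.042 over 10 spots.

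Translation initiation factors lay evenly around 0. The list had 22 of 43 above 0 and a median of 0.00015, with 1 higher and 3 lower at p under 0.05. EIF4A2, an RNA helicase of initiation, read −0.18, −0.17, −0.22 and −0.077 at 3 h, against 0.083, 0.21, −0.013 and 0.051 at 0 h, and all 3 of its spots had means below 0 (−0.28 to −0.16). On their chosen spots the eIF3 subunits EIF3E and EIF3L lay on opposite sides, at −0.19 and 0.23. Over all 3 spots of each gene the means were −0.14 and 0.059. The other spots of EIF3L had a mean of −0.027, so its side depends on the spot. Cytosolic ribosomal proteins had a median of −0.00067 at 3 h and −0.13 at 0 h, and array medians of −0.074, −0.057, 0.16 and −0.035 at 3 h and −0.33, −0.12, 0.0067 and −0.048 at 0 h. RPL22 was the 1 of 68 with p under 0.05 (−0.25, and −0.10 over its 4 spots), and RPS2 had 0.15. Ribosome biogenesis factors had 17 of 48 above 0 and a median of −0.040. Beside 3.12% of all genes, 4 of the 48 were lower with p under 0.05. Among these were DKC1, the pseudouridine synthase of box H/ACA particles (−0.15, −0.0027, −0.23 and −0.15 at 3 h, against 0.045, 0.15, −0.030 and 0.043 at 0 h), UTP20 (−0.23) and NOP58 (−0.21), both of which had replicate 1 above 0 and the other 3 arrays below.

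Lists of stress responses had medians close to 0. ATF4 targets of the amino acid response had a median of −0.011 over 32 genes with no p under 0.05, and SLC7A11, the cystine transporter, read −0.099, −0.040, −0.26 and −0.18 at 3 h, against 0.0079, 0.00012, −0.13 and 0.046 at 0 h. The mTOR brake and sestrins had −0.016, the unfolded protein response −0.0054, p53 targets −0.020, oxidative stress genes 0.018, and glycolysis and hypoxia genes 0.0077. The chaperone CANX of the endoplasmic reticulum read −0.062, −0.055, −0.20 and −0.16 at 3 h, against 0.21, 0.16, −0.0059 and 0.084 at 0 h, with no overlap. CDKN1A, the p53 target that encodes the cell cycle inhibitor p21, read 0.18, 0.19, 0.10 and 0.13 at 3 h, against −0.053, −0.087, −0.087 and −0.17 at 0 h, and averaged over its 11 spots all 3 h arrays were above 0 and all 0 h arrays below. The mean of its spots was 0.073 at 3 h. MAFG, a partner of NRF2, had 0.22 (0.015 to 0.43), and the phosphofructokinases PFKL and PFKM had 0.18 and −0.12. Heat shock genes had 10 of 26 above 0 and a median of −0.035. Besides HSP90AA1, the mitochondrial chaperonin HSPD1 had p under 0.05, at −0.33, −0.64, −0.47 and 0.032 at 3 h, against −0.67, 0.017, −0.12 and 0.21 at 0 h, and its other spot had a mean of 0.047.

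Among cell cycle genes most mitosis genes lay below 0 and most histone genes above it. Mitosis and G2/M genes had 40 of 55 below 0, beside 50.9% of all genes, and a median of −0.065 at 3 h and 0.0082 at 0 h. With p under 0.05, 7 of the 55 were lower and 0 higher, beside 3.12% and 1.7% of all genes. The array medians of the mitosis list were −0.14, −0.011, −0.094 and −0.039 at 3 h, all below 0, and −0.057, 0.014, 0.0017 and 0.046 at 0 h. BUB3, of the spindle checkpoint, read 0.0012, −0.31, −0.28 and −0.11 at 3 h, against −0.11, 0.24, 0.078 and 0.10 at 0 h. KIF20B, a kinesin of cytokinesis, read −0.63, 0.20, −0.22 and −0.63 at 3 h, against 0.17, −0.12, −0.17 and −0.14 at 0 h, and NUF2, of the kinetochore, −0.15, −0.059, −0.33 and −0.27 at 3 h, against 0.21, 0.18, −0.011 and −0.11 at 0 h. NUF2 was below 0 on all 4 arrays of 3 h, though replicate 4 of 0 h overlapped with them, and KIF20B was above 0 in replicate 2. Histone genes had 54 of 63 above 0 at 3 h and 56 at 0 h, and the median farthest from 0 of the 36 lists, 0.14 at 3 h beside 0.062 at 0 h, with no p under 0.05. The histone medians were 0.38, −0.035, 0.12 and 0.064 on the 3 h arrays and 0.075, 0.19, −0.0039 and −0.015 on the 0 h arrays, with replicate 1 of 3 h the highest and replicate 2 below 0. Leaving out 1 replicate gave a 3 h median of 0.080 (without replicate 1) to 0.19 (without replicate 2). H4C2 read 0.45, 0.0041, 0.15 and −0.043 and H3C2 0.34, −0.044, 0.092 and 0.11 at 3 h, against 0.10, −0.032, 0.022 and −0.039 and 0.0080, 0.36, 0.084 and 0.061 at 0 h. Histone genes are near-identical copies, so their spots may bind RNA of several of them. DNA replication and G1/S genes had a median of −0.0064 over 46 genes, with CCNE2 and RFC3, a subunit of the clamp loader (−0.18), lower at p under 0.05.

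Splicing and degradation genes were mostly just below 0. CLK and SRPK kinases and SR proteins, which select splice sites, had 20 of 29 below 0 and a median of −0.042 at 3 h and 0.046 at 0 h. On each of the 4 arrays the median was below 0 at 3 h (−0.0083, −0.072, −0.079 and −0.055) and above 0 at 0 h (0.040, 0.13, 0.0047 and 0.066), a difference that was not tested. RBM25 read −0.11, −0.25, −0.48 and −0.30 at 3 h, against −0.035, 0.28, −0.17 and 0.092 at 0 h, SRSF4 −0.073, −0.21, −0.42 and −0.13 at 3 h, against 0.0089, 0.20, −0.091 and 0.16 at 0 h, and SRSF11 −0.21, 0.072, −0.39 and −0.30 at 3 h, against −0.068, 0.24, −0.15 and 0.13 at 0 h. RBM25 and SRSF4 were low on all 4 arrays of 3 h, and both spots of each gene had means below 0. Proteasome subunits had 15 of 42 above 0 and a median of −0.026, which ran from −0.046 to 0.0021 without 1 replicate. PSMD1 had a mean of −0.19 at 3 h and −0.13 at 0 h, and its other spot had a 3 h mean of 0.027. Ubiquitin activating and conjugating enzymes had −0.022 over 32 of 43 genes, with UBE2G1 at −0.34 through replicate 4 at −0.97, UBE2Q2 at −0.21 and UBE2G2 at 0.14. The other spots of these genes had 3 h means of −0.031, −0.17 and −0.087, so UBE2G2 changed side with the spot.

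Cholesterol synthesis and SREBP genes had a median of 0.024 (ABCA1 0.15), TGF-beta receptors, SMADs and ID proteins −0.016 (BMPR2 −0.13), snoRNA host genes 0.048, and olfactory and taste receptors −0.013 (TAS1R2 −0.14). Markers of monocytes and macrophages had a median of 0.037 over 22 of 28 genes. Of these 14 were above 0. CD86 had a mean of 0.20 at 3 h and 0.15 at 0 h, and FCN1 0.13 and 0.098. The markers of myeloid precursors, T and NK cells, B cells, and erythroid cells and platelets had medians of 0.0079, 0.0069, 0.044 and 0.0054. In that order 12 of 21, 11 of 22, 11 of 16 and 12 of 20 were above 0. ZAP70, of the T and NK list, had 0.17 on its chosen spot and 0.023 over its 10 spots. IGLL1, of the B cell list, had 0.23, and HBA1, of the erythroid list, 0.10. ZAP70 and IGLL1 were the highest members of their lists. In 3 h minus 0 h the marker medians were 0.042 for monocytes and macrophages, 0.062 for myeloid precursors, 0.011 for T and NK cells, 0.077 for B cells and 0.015 for erythroid cells and platelets.

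**Figure D5:**
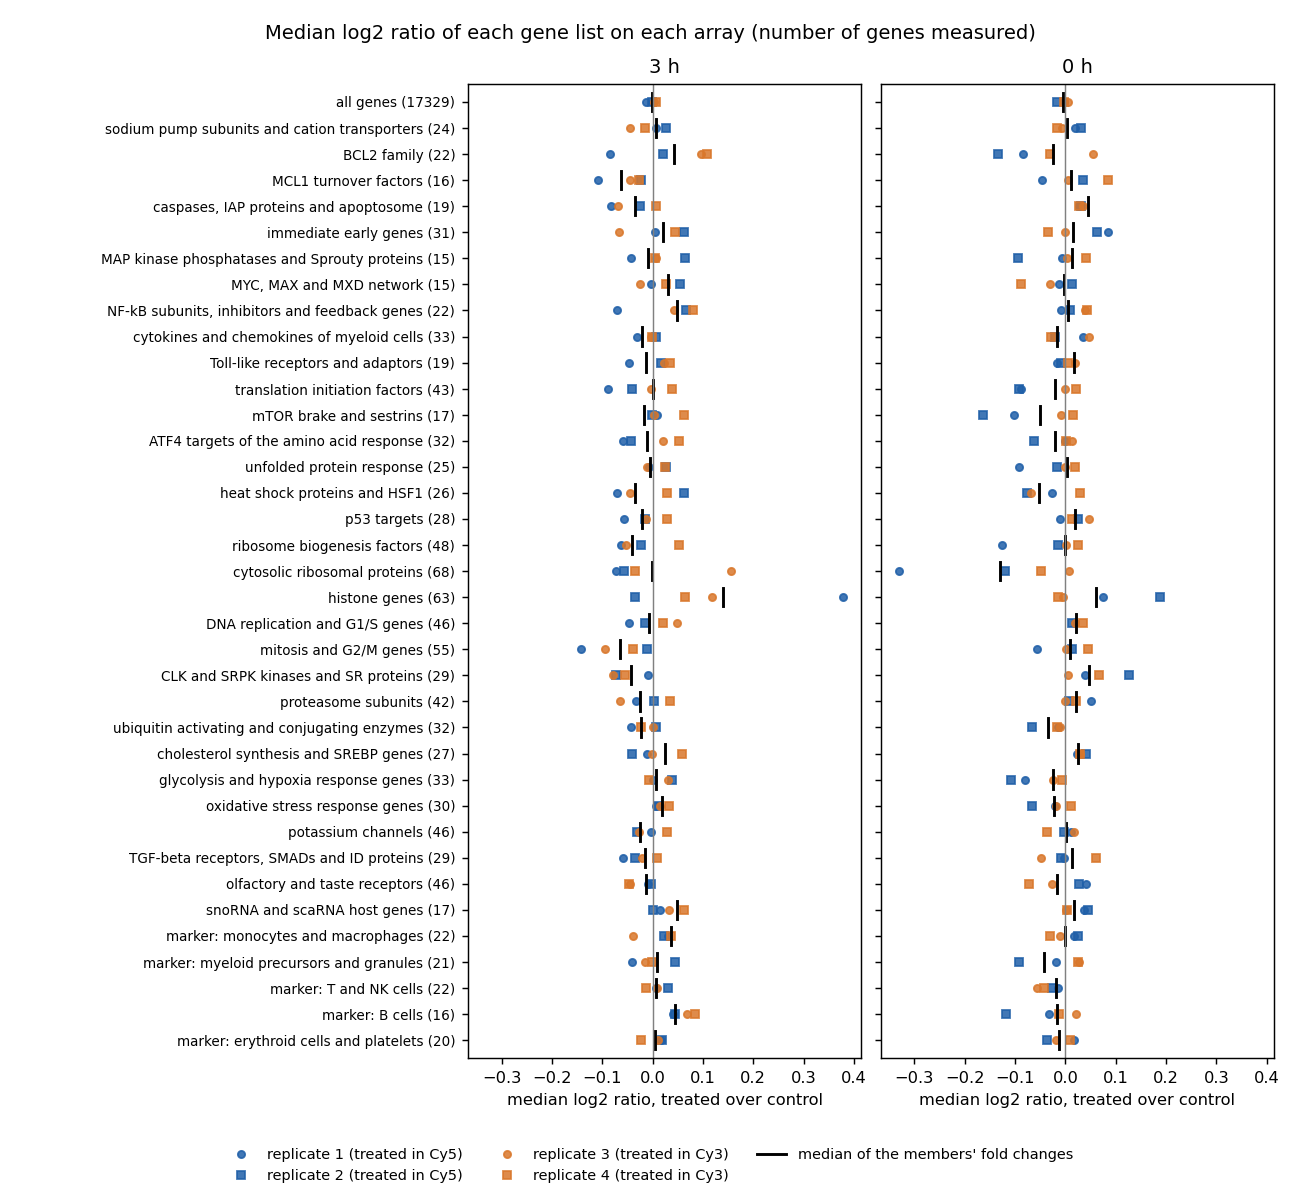
Median log2 ratio (x axis, treated over control) of each gene list and of all genes on each array of 3 h, left, and 0 h, right; markers give the replicate and its dye, the bar is the median of the members' fold changes, and the number of genes measured stands behind each name. Histone genes reach 0.38 on replicate 1 of 3 h, and cytosolic ribosomal proteins reach −0.33 on replicate 1 of 0 h.

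With a dye coefficient for each spot and time point, that coefficient had an adjusted p under 0.05 in limma for 21 genes (0.121%) at 3 h and for 318 (1.84%) at 0 h. Its median absolute value was 0.060 at 3 h and 0.072 at 0 h, about the size of the fold changes themselves. The mean of the 4 arrays holds both orientations equally, so a dye effect of a spot cancels in it but widens the spread. Adding the coefficient left 0 genes called, with 57 passing without adjustment. Within the Cy5 replicates alone 99 genes passed without adjustment and within the Cy3 replicates alone 532, where dye and treatment cannot be told apart, and 0 were called in either.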

How the data were processed

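RNA of U937 cells was compared on 16 Agilent whole-genome arrays of 2 colours, 4 each at 0, 3, 6 and 9 h. The authors extracted signals with GenePix Pro, corrected background by normexp with an offset in limma and applied loess to each array, then Aquantile across the set. The values they deposited are log2 ratios, read here as Cy5 over Cy3 and not turned for the dye swap, and intensities and spot weights were not used here. That direction rests on limma's convention of red over green and on the dyes in the labels, and was not checked against scanner signals. Of 45220 spots, 4657 had no value, 11507 with values were not in the platform annotation used here and 86 carried several symbols, and these were left out. Of 17329 genes, 17305 were matched by identifier to the GRCh38.p14 gene table for current symbols.

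The sign of replicates 3 and 4 was reversed. All 16 arrays entered 1 linear model with a term for each time (lmFit and eBayes, limma 3.58.1, R 4.3.3, with 3.29 prior and 12 residual degrees of freedom), so the spread of all time points enters each standard error. P-values were adjusted by Benjamini-Hochberg over all spots with 1 gene. Calls needed 1.3-fold or more and adjusted p under 0.05, taking for each gene the spot whose F-statistic across the 4 time points was highest, a choice that can pick an outlying spot. Having 4 arrays a time limits the precision. Deviations of arrays with the same number at 3 h and 0 h correlated at 0.321, 0.229, 0.503 and 0.385 across spots, which meets the rule for a block by number. Arrays of other numbers but the same dye orientation correlated at 0.366 to 0.67, and differences within an orientation at −0.355 and 0.051, so a shared orientation cannot be told apart from a shared number.

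Most genes were named by rule. The rules took those the study turns on and up to 3 members per list by smallest p. They took the genes past 1.3-fold with the most extreme moderated t and all arrays on one side (up to 8 each way). They also took up to 6 called by robust regression or with a dye coefficient, and the 4 with the farthest single value. In 3 h minus 0 h they took up to 5 each way with no overlap. Outside these rules, STAG2, SAMSN1, HOOK3, NACC1, ERBB2, RELA, HRAS, JAK2, SMARCAD1, ZNF195 and MYC were chosen after their values were seen. Members, lists and rules were chosen with earlier results of these data known. Other spots, dye terms, blocks, weights, scalings and left-out replicates were tried as alternatives, and the fit was tested on simulated data. Figures were drawn with matplotlib 3.10.9 in Python 3.11.15 (pandas 2.3.3, numpy 2.4.6), and block fits used statmod 1.5.0.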

Additional observations from a re-analysis of the deposited data

Results flagged for a closer look

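On 13 of the 99 genes named here, 1 array of 3 h lay apart from the other 3 beyond Dixon's 95% critical value. Chance alone sets about 1 group in 20 apart, and genes named for a far value or for p are not a random choice. The arrays apart were RAX2 at −5.98, DCLK2 at −3.51, USP54 at −3.50, DZIP1L at 4.33, TULP2 at 1.97, CNTN6 at −2.18, PXDN at −1.36, TFEC at −1.21 and KCNJ2 at −1.64. Smaller gaps of this kind were seen for CASP8 at −0.41, SLC29A4 at −0.056, UEVLD at −0.096 and EIF3E at 0.063. Among the medians of the 36 lists and of all genes at 3 h and 0 h, 3 of 74 were set apart by 1 array: cytosolic ribosomal proteins at 3 h, with replicate 3 at 0.16, the mTOR brake and sestrins at 3 h, with replicate 4 at 0.063, and ubiquitin activating and conjugating enzymes at 0 h, with replicate 2 at −0.067.

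The median of the CLK and SRPK kinases and SR proteins was below 0 on all 4 arrays of 3 h and above 0 on all 4 of 0 h. Their median difference, 3 h minus 0 h, was −0.14 on the log2 scale, and the difference was not tested.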

How the results depend on the processing

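No gene was called at 3 h, or in 3 h minus 0 h, under any alternative whose calls were counted, other than robust regression, which called 3 and 23. The count of 53 genes passing without adjustment at 3 h was 89 with array weights, 26 with the mean of all spots, 25 on the 4 arrays of 3 h alone, 30 by robust regression, 99 within replicates 1 and 2, 532 within replicates 3 and 4, and 55 to 203 without a replicate: 203 without replicate 1, 91 without replicate 2, 55 without replicate 3 and 104 without replicate 4. Of the 53, 25 remained with the mean of all spots and 15 by robust regression. The count of 462 in 3 h minus 0 h was 818 with array weights, 307 with the mean of all spots, 1008 within replicates 1 and 2, 224 within replicates 3 and 4, and 101 to 744 without a replicate, lowest without replicate 2 and highest without replicate 1. With the replicate block the counts were 41 (random) or 70 (fixed) at 3 h and 630 (random) or 637 (fixed) in 3 h minus 0 h. No gene was called at 3 h with the random block, or in 3 h minus 0 h with either block. Centring and scaling of the arrays left both counts within 1.5 times.

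Of 99 named genes, 9 changed sign under some alternative. With the mean of all spots MCL1 was at −0.040, BCL2 at −0.0015 and CASP8 at 0.033. With F over 3, 6 and 9 h BCL2L1 was at −0.36 and ZAP70 at −0.0054. Within replicates 1 and 2 BCL2L1 was at −0.13, ATP1B1 at −0.011 and ATP1B3 at 0.17, and within replicates 3 and 4 USP54 was at 0.063. ATP1B3 was at 0.0038 with scaled arrays and USP54 at 0.0025 by robust regression. Leaving out 1 replicate gave −0.048 to 0.092 for MCL1 (below 0 without replicate 2), −0.13 to 0.060 for ATP1B3 (above 0 without replicate 3, and at 0.012 without replicate 4), −0.56 to 0.0053 for KCNJ2 (above 0 without replicate 4) and −1.15 to 0.041 for USP54 (above 0 without replicate 2). Cause was not tested in any of these. Of the 36 lists, 16 had a 3 h median that took both signs when replicates were left out in turn, among them the pump, proteasome and ribosomal protein lists. The median ran from −0.074 to −0.020 for factors of Mcl-1 turnover and from 0.016 to 0.087 for the BCL2 family. Signal over background was not used here, so spots near background could not be set aside.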

Other observations

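Spots with no single gene in the annotation numbered 11593, of which 61 had a mean past 1.3-fold at 3 h and 102 at 0 h.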
